A study of Mus musculus with 23 samples.

Results

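The genes of insulin and insulin-like growth factor (IGF) signaling followed here were Igf1, Igf2, Igf1r, Insr, Irs1, Irs2, Igfbp2, Igfbp3, Igfbp4, and Igfbp5. They were chosen by gene symbol in the TPM table and matched to the count table by gene ID. All 10 were found among the 67228 gene entries of the count table and the 17644 of the TPM table, and all 10 were among the 14364 genes with enough counts to be tested. RNA had been taken from femur and tibia of female C57BL6/N mice at 11 weeks of age, after the marrow had been spun out. Saline had been given to 5 WT mice (WT Control) and to 6 mice labelled Sarm1 knockout (KO Control), and type 1 diabetes had been induced in 6 WT mice (WT T1D) and 6 labelled knockouts (KO T1D). The inducing agent was streptozotocin, injected i.p. at 100 mg/kg, a drug that is toxic to the insulin-producing β cells of the pancreas, and had lasted 3 weeks at harvest. The knockout was global, so it was present in every cell type of the KO mice, with and without T1D. Each library came from 1 mouse, which is named here by its ID, and WT mice could be littermates of the KO mice or purchased mice of the same background, which the labels do not tell apart.

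Insulin acts on the insulin receptor, and IGF1 and IGF2 act mainly on the IGF1 receptor. Both receptors are tyrosine kinases that phosphorylate the insulin receptor substrates, which recruit PI3K and switch on AKT and mTOR while keeping FOXO transcription factors out of the nucleus. IGF-binding proteins hold IGFs in the blood and in the matrix, and either store or shield them. The 10 genes lie on chromosomes 1 (Irs1, Igfbp2, and Igfbp5), 7 (Igf1r and Igf2), 8 (Insr and Irs2), 10 (Igf1), and 11 (Igfbp3 and Igfbp4), all annotated as protein coding. In bone, osteoblasts and osteocytes make IGF1 and respond to it, and loss of insulin or of IGF signaling lowers bone formation.

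Total counts per mouse ranged from 16938101 to 20135592. Osteoblast and osteocyte markers were present in every library, and the 11 listed genes summed to between 1386 and 72890 TPM (a unit scaled to transcript length and library size, so that genes can be compared). None of the 11 was at 0 in all 23 mice. The lowest sums were those of WT T1D mice A3905 and A3906, at 1633 and 1386 TPM, against at least 31650 TPM in every other mouse. A sum is carried by the most abundant markers. In mean log2 CPM of the 11 markers (CPM is explained below) the gap was narrower, at 6.909 and 6.8 against at least 8.391. Erythroid markers were also abundant, at 235700 to 472100 TPM, and were highest in the same 2 mice. WT T1D mouse A1764 stood apart in another way. In this mouse 50 genes were more than 2-fold above every other mouse, against at most 9 in any other, and its summed nerve markers reached 33.78 TPM, against at most 14.15 TPM elsewhere. The targeted gene, Sarm1, had 5 to 32 counts per mouse. Its CPM (counts scaled to the TMM-normalized library size, used here between mice) spanned 0.846 to 1.76 in WT Control, 0.340 to 1.21 in WT T1D, 0.268 to 1.57 in KO Control, and 0.811 to 1.46 in KO T1D. Sarm1 RNA thus did not separate the genotypes, and which exons the knockout removed is not given in the labels, so the mice labelled KO are named by label only.

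The binding proteins stood at the top of the 10 genes in level. On the TPM scale, Igfbp4 averaged 410.3 ± 55.8 (SD, n = 5) in WT Control and Igfbp5 averaged 169.0 ± 25.2. Igfbp3 followed at 19.1 ± 4.85 TPM. The ranges of these 3 genes over WT Control mice did not overlap each other or those of any other member. The remaining members lay between 4.05 ± 1.32 TPM for Igfbp2 and 9.41 ± 1.59 TPM for Igf1, with Irs2, Igf1r, Irs1, Insr, and Igf2 in between, in falling order of their means. Among these 7, neighbours in the order overlapped in their ranges over mice, apart from Irs2 (at least 7.76 TPM) and Igf1r (at most 7.56 TPM). Igfbp4 and Igfbp5 were also first and second in the other 3 groups, although their ranges overlapped in WT T1D. Ins1 and Ins2, which encode insulin itself, had 0 counts in every mouse, as did Igfbp1, the binding protein of liver, and Irs4.

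**Figure D1:**
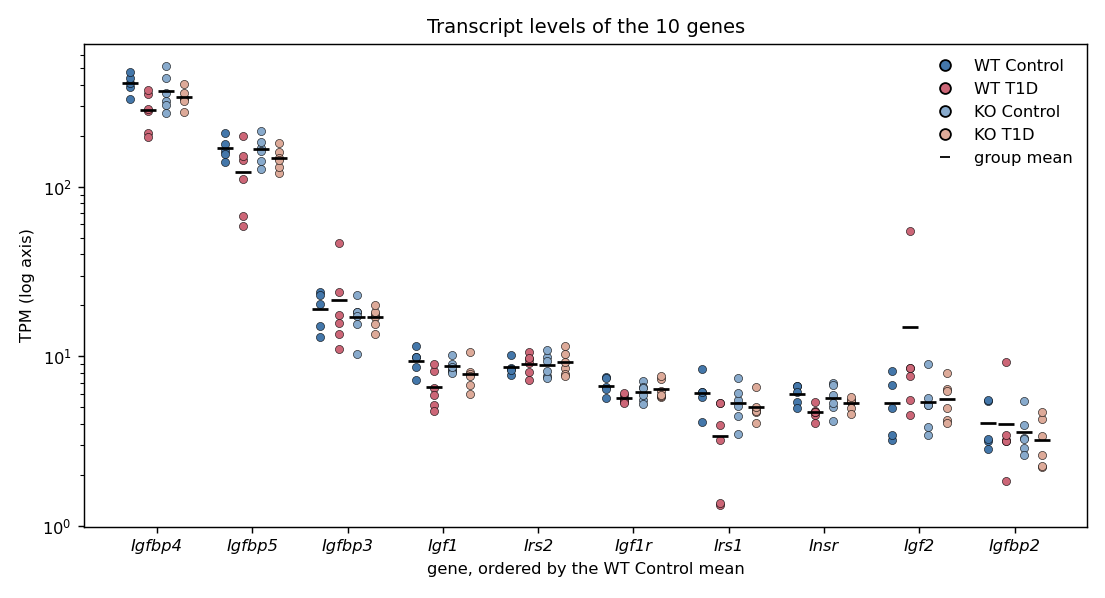
TPM of each gene in each mouse on a log axis, by group, with the group means as bars. Igfbp4 and Igfbp5 lie above 50 TPM in every mouse, and the single Igf2 point at 54.9 TPM is WT T1D mouse A1764.

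Igfbp4, Igfbp5, and Igfbp7 carried most of the binding-protein transcripts. The share of Igfbp4 in the summed TPM of Igfbp2 to Igfbp7 had a median of 51.3% without and 49.0% with T1D in WT mice, and of 51.8% without and 53.9% with T1D in KO mice. The ranges over mice overlapped among the 4 groups. Igfbp3 made up 1.63% to 3.06% of the sum in 21 of the 23 mice, and 10.8% and 6.12% in A3905 and A3906. These shares were computed after the values were seen and are given with no test.

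Whether T1D altered these genes in bone was asked first in WT mice, then in KO mice, and then as the difference between both. With edgeR's quasi-likelihood test and Benjamini-Hochberg adjustment over the 14364 genes, 0 of the 10 members passed an adjusted p under 0.05 for T1D in WT, where 2.33% of all tested genes did. Without adjustment, 3 of the 10 were under 0.05 (Igf2 and Irs2 higher, Irs1 lower), and so were 22.2% of all genes. DESeq2 called 2 of the 10, Igf2 and Irs2, and 6.98% of all genes. The median log2 fold change of the 10 was -0.02, and that of all tested genes was -0.01. Irs2 was the 1 member of 10 whose WT T1D and WT Control mice did not overlap in CPM, as was true of 2.19% of all tested genes.

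**Figure D2:**
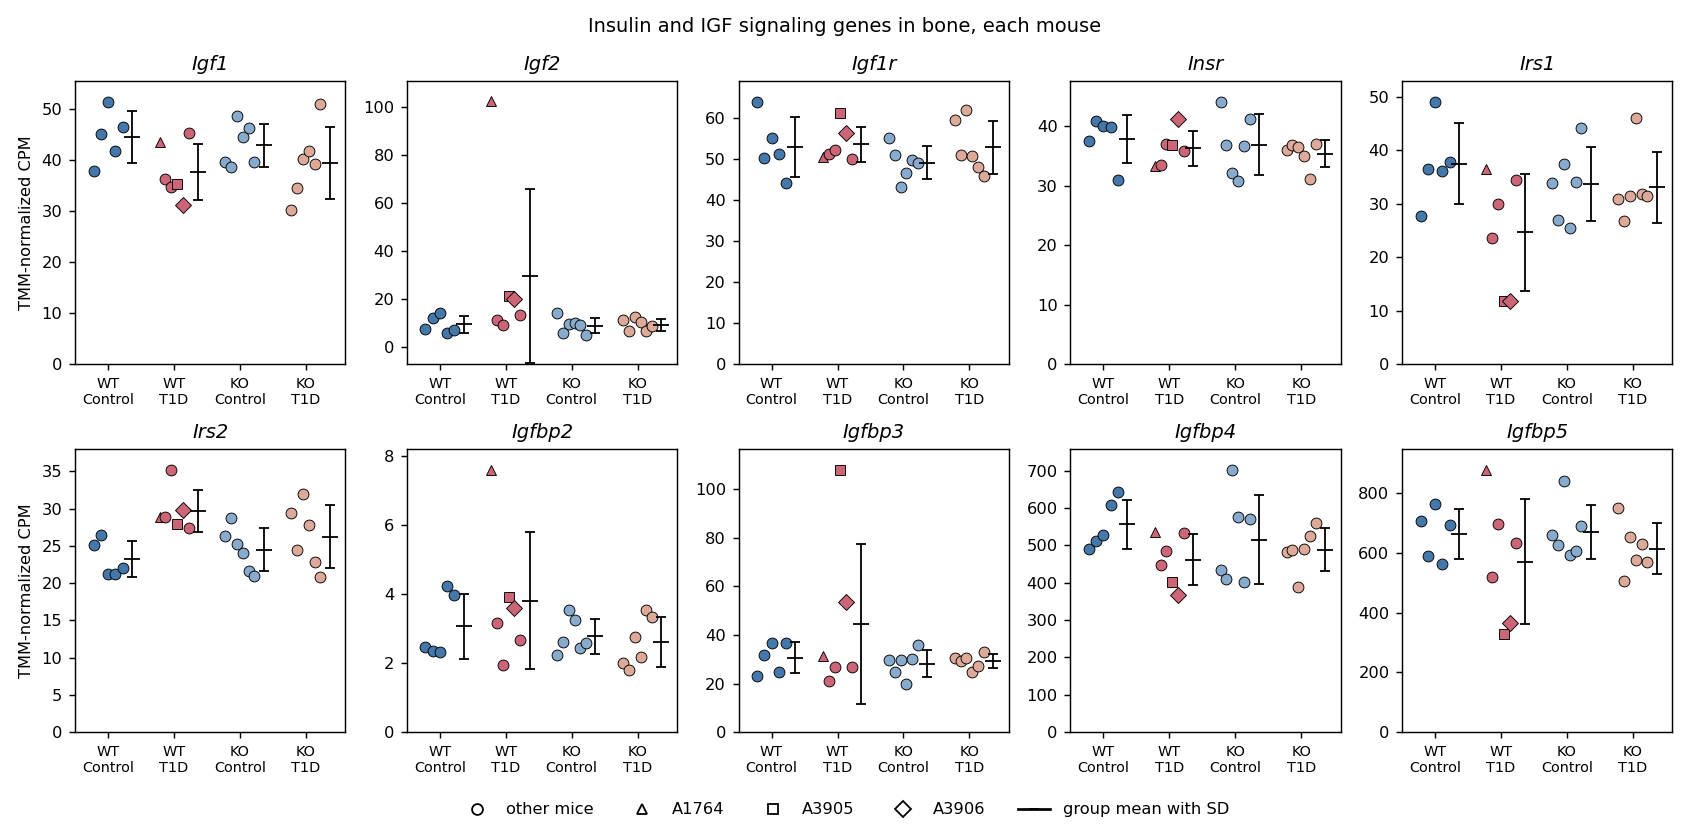
TMM-normalized CPM of each gene in each mouse by group, on axes that include 0, with the group mean and SD beside the points. In Irs2 all 6 WT T1D mice lie above all 5 WT Control mice, while the high Igf2 point is A1764 and the low Irs1 points and high Igfbp3 points are A3905 and A3906.

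Irs2 and Irs1 encode the 2 receptor substrates that are widely expressed outside the brain. In CPM, Irs2 was higher in every WT T1D mouse than in any WT Control mouse, and Irs1 was much lower in 2 of the 6. Neither gene passed adjustment with edgeR, and the 2 genes were not tested against each other. Irs2 was at 21.2, 21.2, 22.1, 25.1, and 26.5 CPM in the WT Control mice. In the WT T1D mice it was at 27.5, 28.0, 28.8, 28.9, 29.8, and 35.2 CPM. Every WT T1D mouse was thus above every WT Control mouse. This was a log2 fold change of 0.35 (SE 0.11, 1.28-fold), which did not pass adjustment with edgeR's quasi-likelihood test (adjusted p = 0.0644). With DESeq2 the adjusted p was 0.0354.

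The Irs2 value was also computed on fewer mice. Without A1764, A3905, and A3906 the log2 fold change was 0.39 (edgeR adjusted p = 0.407). Among mice with IDs from A36 to A39 it was 0.33 (edgeR adjusted p = 0.0966). The A17 series of IDs held 1 WT Control mouse, at 25.1 CPM, and 3 WT T1D mice, at 28.8, 28.9, and 35.2 CPM. A mouse ID series may be a cohort, but the labels do not say so. On the TPM scale, where the median of all genes fell by 0.24 (log2) in WT T1D, the Irs2 difference was 0.06 and the adjusted p from limma was 0.686. The groups overlapped there, at 7.76 to 10.25 TPM in WT Control and 7.28 to 10.61 TPM in WT T1D.

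Irs2 in KO mice did not separate by T1D. KO Control mice lay between 21.0 and 28.7 CPM (median 24.7), and KO T1D mice between 20.8 and 31.9 CPM (median 26.2). The groups overlapped, with a log2 fold change of 0.10 and a 95% interval from -0.11 to 0.31. The difference between the KO and WT responses was -0.26 on the log2 scale (SE 0.15, edgeR adjusted p = 0.534), so the responses of the 2 genotypes were not shown to differ.

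Irs1 was at 27.8, 36.2, 36.6, 37.9, and 49.0 CPM in WT Control. In the 6 WT T1D mice it was at 11.7, 11.8, 23.6, 30.0, 34.4, and 36.5 CPM. The 2 lowest values were those of A3906 and A3905, and 3 of the 6 were below every WT Control mouse. The difference was -0.60 on the log2 scale (SE 0.24, edgeR adjusted p = 0.144). Without A3905 and A3906 it was -0.27 (edgeR adjusted p = 0.59). Among mice with IDs from A36 to A39, where these 2 are 2 of 3 WT T1D mice, it was -1.03 and passed (edgeR adjusted p = 0.0257). On the log2(TPM + 1) scale limma also called Irs1, at -0.78 (adjusted p = 0.0189), and with a score of erythroid markers as covariate the edgeR value was -0.02. All 13 erythroid markers in that score had a positive log2 fold change for T1D in WT, and 6 passed edgeR's test. The score thus moves with the comparison, and a fit with it cannot separate the 2.

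Irs1 varied over mice together with the osteoblast and osteocyte markers. Over the 23 mice the Pearson r between Irs1 and the mean log2 level of the 11 markers was 0.923. Without A1764, A3905, and A3906 it was 0.786 over 20 mice. The 3 genes most like Irs1 among 13307 with a mean of at least 1 CPM were Dpysl3 (r = 0.973), Palld (r = 0.962), and Mef2c (r = 0.961). All of these correlations describe libraries that share depth, tissue composition, and the 2 mice with the lowest osteoblast marker levels. In bulk RNA, fewer cells of a type and less RNA per cell cannot be told apart. In WT T1D 10 of the 11 osteoblast and osteocyte markers had a negative log2 fold change and 2 of the 11 passed edgeR's test. None of the 11 was at 0 in all 23 mice, and their part in the Irs1 values was not tested.

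**Figure D3:**
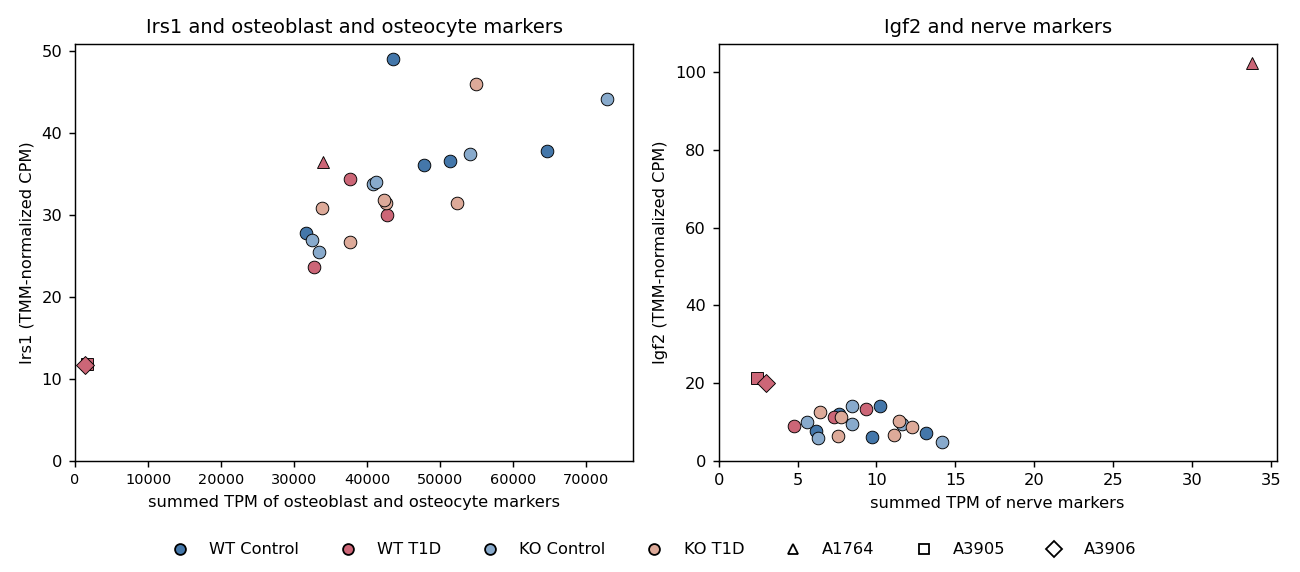
Irs1 CPM against the summed TPM of 11 osteoblast and osteocyte markers (left) and Igf2 CPM against the summed TPM of 10 nerve markers (right), 1 point per mouse. A3905 and A3906 lie at the lower left of the Irs1 plot, at 11.8 and 11.7 CPM, and A1764 lies alone at the upper right of the Igf2 plot, at 102 CPM and 33.78 TPM.

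In KO Control mice Irs1 lay between 25.5 and 44.2 CPM (median 34.0), and in KO T1D mice between 26.7 and 46.0 CPM (median 31.5). The values overlapped, with a log2 fold change of -0.03 and a 95% interval from -0.50 to 0.45. The difference between the responses of the genotypes was 0.58 (SE 0.33, edgeR adjusted p = 0.539). On the TPM scale the ratio of Irs2 to Irs1 lay between 0.995 and 2.08 for WT Control, 1.82 and 5.87 for WT T1D, 1.095 and 2.46 for KO Control, and 1.40 and 2.33 for KO T1D. The 2 highest ratios, 5.47 and 5.87, were those of A3905 and A3906. This ratio was chosen after the values were seen and is given with no test.

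The sequence before the start of both genes was read because FOXO factors, which insulin restrains, bind a short element known as the insulin response sequence. RefSeq windows of 300 bases (250 before and 50 after a start, GRCm38.p6) were available for 9 of the 10 members, 13 windows in all, with none for Insr. The letters TGTTTTG, on either strand, were found in 2 of these 13 windows, those of Irs1 and Irs2, and in 6.28% of 32851 windows of all genes. No other motif searched was found in the 13 windows. These were GTAAACA (3.65% of all windows), GTAAAC, which GTAAACA contains (7.89%), TGTTTAT (4.6%), and the STAT form TTCNNNGAA (8.3%). Irs1 lies on chr1:82233105-82291439 and Irs2 on chr8:10984681-11008929, and the 150 bases before each start are shown 5′ to 3′ on the gene's strand, with TGTTTTG in capitals, because these 2 genes share the letters while their WT values lay in opposite directions.
Irs1, chr1:82291440-82291589, minus strand: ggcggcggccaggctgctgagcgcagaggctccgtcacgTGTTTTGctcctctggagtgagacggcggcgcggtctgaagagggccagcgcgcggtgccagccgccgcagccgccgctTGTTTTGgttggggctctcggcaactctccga
Irs2, chr8:11008930-11009079, minus strand: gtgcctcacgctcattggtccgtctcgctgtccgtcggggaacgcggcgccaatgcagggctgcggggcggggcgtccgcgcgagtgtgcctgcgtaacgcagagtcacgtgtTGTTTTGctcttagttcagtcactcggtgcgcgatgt
The Irs1 stretch held the letters 111 and 32 bases before the start, and the Irs2 stretch held them once, 37 bases before it. A match is a description of the sequence and shows no binding.

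The ligands differed from each other. Igf1 varied less over mice than Igf2, which was far higher in WT T1D mouse A1764 than in any other. The next highest Igf2 values, 21.3 and 20.1 CPM, were those of A3905 and A3906. Igf1, the main IGF made in adult bone, was at 37.85, 41.8, 45.2, 46.5, and 51.4 CPM in WT Control and at 31.2, 34.7, 35.4, 36.4, 43.5, and 45.3 CPM in WT T1D. Of the 6 WT T1D values, 4 were under the whole WT Control range, and the groups overlapped. Igf1 differed by -0.24 on the log2 scale (SE 0.12, edgeR adjusted p = 0.226). In KO mice Igf1 lay between 38.6 and 48.6 CPM without T1D (median 42.2) and between 30.2 and 51.0 CPM with it (median 39.7), with a log2 fold change of -0.12 and a 95% interval from -0.35 to 0.11. Averaged over both genotypes, the T1D difference was -0.18 (SE 0.08, edgeR adjusted p = 0.271). On the TPM scale, limma called Igf1 in WT at a difference of -0.47 (adjusted p = 0.0185), where the median of all genes was -0.24.

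Igf2, the fetal growth factor, was at 6.03, 7.22, 7.67, 12.01, and 14.2 CPM in WT Control. In WT T1D it was at 9.004, 11.2, 13.3, 20.1, 21.3, and 102 CPM. The highest was A1764, and 3 of the 6 WT T1D mice were above every WT Control mouse. On the log2 scale the difference was 1.65 (SE 0.49, 3.14-fold, edgeR adjusted p = 0.0601). DESeq2 gave an adjusted p of 0.0229. Without A1764 the log2 fold change was 0.67 (edgeR adjusted p = 0.146), and without A1764, A3905, and A3906 it was 0.25 (edgeR adjusted p = 0.841).

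A1764 also had the highest levels of nerve, Schwann cell, and tendon and fibrous tissue markers, in summed TPM and in mean log2 CPM. The summed Schwann cell markers (5 of 5 in the table) were 76.34 TPM in A1764 and at most 57.2 TPM in the other mice. Tendon and fibrous tissue markers (8 of 8) were 275.5 TPM in A1764 and at most 139.3 TPM elsewhere. The nerve, Schwann cell, and tendon lists were added after the values were seen. Hepatocyte markers, a list not among those added, summed to 56.6 TPM in A1764 and to at most 3.8 TPM in the other mice. Only 1 of the 4 hepatocyte genes had enough counts to be tested. Its log2 level in A1764 was -1.0, the floor of that scale, which mice of all 4 groups shared. The 3 genes most like Igf2 over the 23 mice were Apod (r = 0.847), Cntfr (r = 0.847), and Mbp (r = 0.785), a myelin gene. Over the 20 mice without A1764, A3905, and A3906, the r was 0.654 with Apod, 0.591 with Cntfr, and 0.05 with Mbp. With the marker lists it was 0.651 for Schwann cells, 0.502 for tendon and fibrous tissue, and -0.0382 for nerve over the same 20 mice. The part of these tissues in the Igf2 value of A1764 was not tested.

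Igf2 in KO mice lay within the range of WT Control in 10 of 12 animals. It was between 4.85 and 14.1 CPM without T1D (median 9.40) and between 6.48 and 12.6 CPM with it (median 9.40). The log2 fold change with T1D was 0.06 and the 95% interval ran from -0.89 to 1.01. Between T1D groups, Igf2 was lower in KO than in WT by a log2 difference of -1.67 (SE 0.46, edgeR adjusted p = 0.119, DESeq2 adjusted p = 0.0345). Without A1764 that difference was -0.70 (edgeR adjusted p = 0.172).

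The receptors did not separate by group in CPM. In WT mice Igf1r lay between 44.2 and 64.0 CPM without T1D (median 51.2) and between 50.1 and 61.2 CPM with it (median 51.7). KO mice lay between 43.3 and 55.1 CPM without T1D (median 49.5) and between 46.0 and 62.0 CPM with it (median 50.8). Insr lay between 30.9 and 40.9 CPM without T1D (median 39.8) and between 33.3 and 41.2 CPM with it (median 36.3) among WT mice, and between 30.8 and 44.0 CPM (median 36.7) and between 31.1 and 36.95 CPM (median 36.2) among KO mice. All 4 groups overlapped for both genes. The T1D log2 fold change of Igf1r was 0.02 in WT (95% interval from -0.17 to 0.21) and 0.10 in KO (from -0.08 to 0.28). That of Insr was -0.06 in WT (from -0.25 to 0.13) and -0.06 in KO (from -0.24 to 0.12). On the log2(TPM + 1) scale, where the median of all genes was at -0.24, the Igf1r difference in WT turned to -0.21, and limma called Insr at -0.29 (adjusted p = 0.033). The TPM of Igf1r exceeded that of Insr in 21 of the 23 mice, with a median ratio of 1.11 without and 1.19 with T1D in WT mice, and of 1.101 without and 1.23 with T1D in KO mice.

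**Figure D4:**
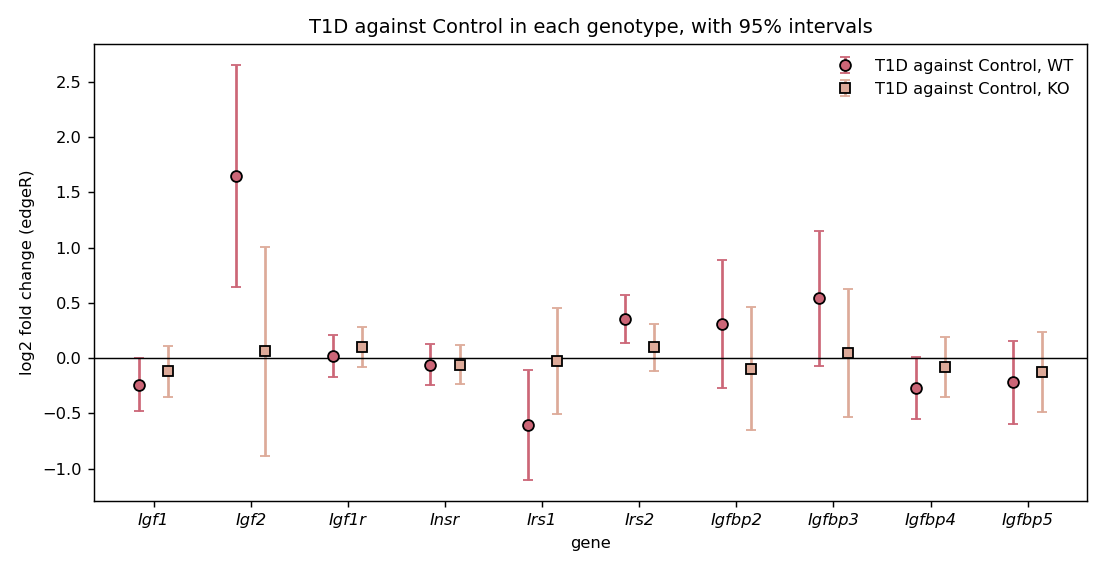
The edgeR log2 fold change of T1D against Control for each gene in WT mice (circles) and in mice labelled KO (squares), with 95% intervals that are not adjusted for the number of genes. In KO mice every estimate lies between -0.12 and 0.10, and in WT mice Igf2 has the widest interval, from 0.64 to 2.65.

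The binding proteins fell into different patterns in WT mice with T1D. Igfbp3, the main carrier of IGFs in blood, was at 23.3, 24.8, 31.8, 36.6, and 36.9 CPM in WT Control. In WT T1D it was at 21.2, 26.6, 27.0, 31.5, 53.4, and 108 CPM, and the 2 highest values were those of A3906 and A3905. The other 4 mice lay within or below the range of WT Control. The fold change of 0.54 (log2, SE 0.29) did not pass (edgeR adjusted p = 0.287), and without A3905 and A3906 it was -0.21 (edgeR adjusted p = 0.655). Among mice with IDs from A36 to A39 it was 0.96 and passed (edgeR adjusted p = 0.0321). The 3 genes most like Igfbp3 over the 23 mice were Parl (r = 0.834), Spp1 (osteopontin, r = 0.825), and Tbc1d2 (r = 0.816). Over the 20 mice without A1764, A3905, and A3906 these r were 0.525, 0.31, and 0.216. With the osteoblast and osteocyte markers the r of Igfbp3 was -0.667 over the 23 mice and 0.615 over the 20.

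Igfbp5, a binding protein that attaches to bone matrix, was lowest in A3905 and A3906, the mice in which Igfbp3 was highest. WT Control mice were at 562.7, 591, 694, 707, and 766 CPM, and WT T1D mice lay between 329.6 and 878.9 CPM (median 577). The lowest values were 329.6 CPM in A3905 and 364 CPM in A3906, and the highest was that of A1764. As a log2 fold change this was -0.22 (SE 0.18, edgeR adjusted p = 0.503). Without A3905 and A3906 it was 0.04 (edgeR adjusted p = 0.957), and without A1764 it was -0.38 (edgeR adjusted p = 0.143). It was -0.55 among mice with IDs from A36 to A39 (edgeR adjusted p = 0.0522) and -0.58 on the log2(TPM + 1) scale (limma adjusted p = 0.0521). Over the 23 mice Igfbp5 and Irs1 had an r of 0.805, the highest between any members. The r of this pair was not computed without A1764, A3905, and A3906. Without these 3 mice the r of Igfbp5 with the osteoblast and osteocyte markers was 0.186, against 0.724 over all 23.

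Igfbp4, which inhibits IGF action, was lower in most WT T1D mice, though the groups overlapped. WT Control mice were at 491.6, 512, 527, 609.3, and 643.6 CPM, and WT T1D mice lay between 366.8 and 535.7 CPM (median 467), with 4 of the 6 under the whole WT Control range. The difference was -0.27 on the log2 scale (SE 0.14, edgeR adjusted p = 0.248), and -0.16 without A3905 and A3906 (edgeR adjusted p = 0.74). On the log2(TPM + 1) scale limma called it at -0.56 (adjusted p = 0.0196). Over the 23 mice Igfbp4 was most like Dap (r = 0.832) and Plcb3 (r = 0.827), and its r with the chondrocyte markers was 0.788.

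Igfbp2 was the lowest member in counts, with 33 to 135 per mouse. WT Control mice lay between 2.32 and 4.23 CPM (median 2.465), and WT T1D mice between 1.95 and 7.60 CPM (median 3.37). The 1 value above WT Control was that of A1764. Its log2 fold change was 0.31 (SE 0.28, edgeR adjusted p = 0.535), and without A1764 it was -0.0034. On the log2(TPM + 1) scale the sign also turned, to -0.10.

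**Figure D5:**
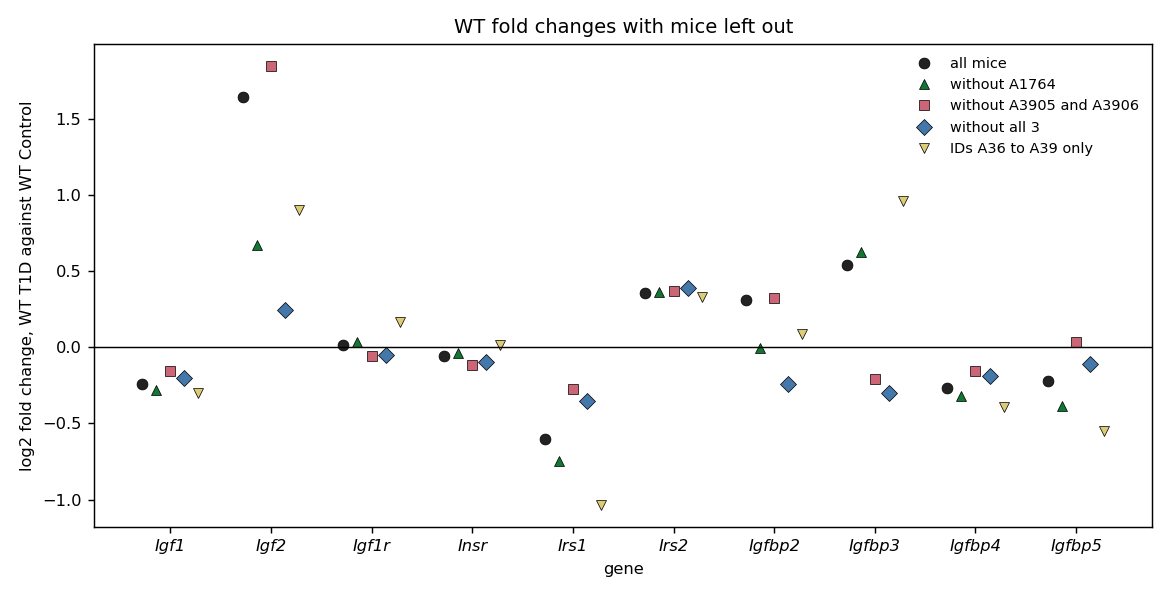
The edgeR log2 fold change of WT T1D against WT Control for each gene with all mice, without A1764, without A3905 and A3906, without all 3 of these mice, and with mice of IDs A36 to A39 only. Irs2 lies between 0.33 and 0.39 throughout, while Igfbp3 crosses 0 and Igf2 falls from 1.65 to 0.25.

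In KO mice none of the 4 binding proteins separated by T1D. Igfbp3 lay between 19.7 and 35.8 CPM without T1D and between 24.7 and 32.8 CPM with it. For Igfbp4 these bounds were 401 to 702 CPM and 387 to 560.3 CPM, and for Igfbp5 they were 593.5 to 840.5 CPM and 505 to 752 CPM. Igfbp2 lay between 2.23 and 3.54 CPM without T1D and between 1.80 and 3.53 CPM with it. The groups overlapped for each of these genes, and the log2 fold changes lay between -0.12 and 0.05.

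For T1D in KO, 0 of the 10 members and 0.0% of all genes passed with edgeR, and 0 members and 0.0% of genes passed with DESeq2. Without adjustment, 0 of 10 members were under 0.05, against 3.15% of all genes. No member's T1D and Control groups were apart in KO mice, where 0.258% of all tested genes were. The absence of calls in KO mice does not show that their response differed from that of WT mice. Tested directly, the interaction of genotype and diabetes gave 0 members with edgeR (0.0% of all genes) and 0 with DESeq2 (0.0% of all genes). Without adjustment 1 of 10 was under 0.05, Igf2 at -1.59 (SE 0.66), and so were 10.2% of all genes. The lowest edgeR adjusted p of any member's interaction was 0.479.

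Averaged over both genotypes, the T1D comparison called 0 of 10 members and 0.111% of all genes with edgeR, and 0 of 10 and 1.73% with DESeq2. Without adjustment 3 of 10 were under 0.05 (Igf2 and Irs2 higher, Igf1 lower), and so were 16.4% of all genes. For Irs2 the averaged difference was 0.23 (SE 0.07, edgeR adjusted p = 0.144).

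KO and WT mice were compared within Control and within T1D. Mouse IDs followed the genotype label, with IDs from A17 and A39 only in WT mice and IDs from A36 only in KO mice. Only A3767 (WT Control) and A3766 (KO Control) came from a shared series. What a series stands for is not in the labels, so genotype and ID series cannot be told apart in these comparisons. The interaction rests on the same mice and has the same limit. Between the Control groups 0 of 10 members passed with edgeR (0.0278% of all genes) and 0 with DESeq2 (0.0279%), and 0 of 10 were under 0.05 without adjustment (4.8% of all genes). The log2 differences of KO against WT lay between -0.16 for Irs1 and 0.08 for Irs2. Between the T1D groups 0 of 10 passed with edgeR (0.0905% of all genes) and 1 with DESeq2, Igf2 (1.66% of all genes). Without adjustment 2 of 10 were under 0.05 (17.1% of all genes), Igf2 and Igfbp3, both lower in KO T1D. The Igfbp3 difference was -0.61 (SE 0.28, edgeR adjusted p = 0.271), and without A3905 and A3906 it was 0.14. The T1D comparisons within WT and between T1D groups share the WT T1D mice.

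Other genes of the pathway were read from a list of 71 genes, of which 65 could be tested. In WT mice with T1D 2 of the 65 rose, Pck1 and Eif4ebp1, and 0 fell with edgeR's adjusted p under 0.05, where 2.33% of all genes passed. DESeq2 called 4 of the 65, where it called 6.98% of all genes. Besides Pck1 and Eif4ebp1 these were Socs1, a suppressor of cytokine signaling, at -0.59 (edgeR adjusted p = 0.0562, DESeq2 adjusted p = 0.0229), and Grb10, an adaptor that restrains both receptors, at -0.63 (edgeR adjusted p = 0.0713, DESeq2 adjusted p = 0.0280). The median log2 fold change of the list was 0.03, and that of all genes was -0.01. By role, the calls were 1 of 11 FOXO targets, 1 of 20 genes of the PI3K-AKT-mTOR core, and 0 of the 7 ligands and binding genes, 2 receptors, 9 adaptors, 9 brakes, 3 growth hormone relay genes, and 4 FOXO factors. Without adjustment 10 of the 65 were higher and 6 lower, against 22.2% of all genes in either direction. In KO mice with T1D 0 of the 65 passed with edgeR and 0 with DESeq2, and 2 were under 0.05 without adjustment (3.15% of all genes). The interaction called 0 with both tools, with 6 under 0.05 unadjusted (10.2% of all genes). Between T1D groups edgeR called 0 of the 65, with 4 higher and 14 lower in KO at an unadjusted p under 0.05 (17.1% of all genes). DESeq2 called 2 there (1.66% of all genes), Pck1 at -2.83 and Trib3, an inhibitor of AKT, at -2.16 (edgeR adjusted p = 0.1265, DESeq2 adjusted p = 0.0192). Socs1, Grb10, and Trib3 were named after their values were seen.

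Pck1, the gluconeogenic enzyme that insulin represses in liver through FOXO1, was close to the limit of detection in Control mice, with 0 to 15 counts. It was at 0, 0.0548, 0.3945, 0.606, and 0.622 CPM in WT Control and at 0.344, 1.03, 1.17, 1.35, 5.095, and 11.2 CPM in WT T1D. Of the 6 WT T1D mice 5 were above every WT Control mouse, and the 2 highest were A3905 and A3906. Its log2 fold change was 3.30 (SE 0.86, edgeR adjusted p = 0.0476). Without A3905 and A3906 it was 1.52 and did not pass (edgeR adjusted p = 0.452), and with the erythroid score as covariate it was 1.65 and did not pass (edgeR adjusted p = 0.999). That score itself rose with T1D in WT mice, so fits with it cannot separate the score from T1D. Pck1 is also made by adipocytes, whose 6 markers summed to 637 and 716 TPM in A3905 and A3906 and to at most 369 TPM in the other mice, and their part in the Pck1 value was not tested. In KO mice Pck1 lay between 0.110 and 0.858 CPM without T1D and between 0.0527 and 0.932 CPM with it.

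Eif4ebp1 encodes 4E-BP1, the repressor of cap-dependent translation that mTOR inactivates. It was at 63.9, 69.7, 75.5, 81.2, and 83.85 CPM in WT Control. In WT T1D it was at 79.3, 83.1, 91.8, 98.6, 138.6, and 159.8 CPM, and 4 of the 6 mice were above every WT Control mouse. It rose by 0.54 on the log2 scale (SE 0.14, edgeR adjusted p = 0.049). Without A3905 and A3906, again the 2 highest, it was 0.23 (edgeR adjusted p = 0.358). It did not pass with the erythroid score as covariate (0.26, edgeR adjusted p = 0.999) or on the log2(TPM + 1) scale (0.21, limma adjusted p = 0.127). In KO mice it lay between 68.75 and 84.0 CPM without T1D and between 69.4 and 88.8 CPM with it, with a log2 fold change of 0.07. The difference between genotypes was -0.47 for Eif4ebp1 and -3.29 for Pck1, with an edgeR adjusted p of 0.479 for both. Both calls were close to the threshold: leaving out 1 of the 23 mice at a time ended the call of Pck1 for 18 mice (edgeR adjusted p up to 0.145) and that of Eif4ebp1 for 17 mice (up to 0.134), while both log2 fold changes stayed above 0.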

How the data were processed

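Marrow-depleted femur and tibia from 23 mice had been sequenced by the authors as oligo(dT)-selected, strand-specific (dUTP) libraries on a BGI DNBSEQ instrument, 1 library per mouse. The study's methods and the submitters' notes name SOAPnuke for read filtering, HISAT and Bowtie2 for alignment to mouse GRCm38.p6, and RSEM for quantification. Both tables were used as the authors deposited them. One held expected counts per gene, which the authors had estimated with RSEM, and the other held TPM, which the authors had scaled to transcript length and library size. Here the expected counts were rounded to whole numbers, and 14364 genes were kept, each with a minimum of 10 counts in 5 or more mice. Total counts per mouse were 16938101 to 20135592.

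Groups came from the submitted labels. All groups were fitted in 1 model with edgeR 4.0.16 (TMM normalization, quasi-likelihood test, R 4.3.3), for T1D within each genotype, the interaction, the average over genotypes, and KO against WT within Control and T1D. Benjamini-Hochberg adjustment ran over all tested genes, and 95% intervals used the t quantile of the model's degrees of freedom. Alternatives were DESeq2 1.42.0, limma 3.58.1 on log2(TPM + 1) and log2(TPM + 0.1), other normalization and count filters, an erythroid score as covariate, mice with IDs A36 to A39 only, and each mouse left out in turn. Leaving out A1764, A3905, and A3906 together was added after the values were seen. On simulated counts with 200 of 14364 genes changed by 1 (log2) in WT T1D, the T1D in WT comparison recovered 75.0% of them, and 5.06% of its calls were false. Recovery of genes changed by less than 1 (log2), such as Irs2 at 0.35 in WT, was not tested. Each gene and mouse was drawn independently, so no simulated mouse stood apart in many genes, as A3905 and A3906 did. The rates from the simulation therefore do not describe calls that depend on such mice. Among 55 pairs of mice of 1 group the lowest chi-square per gene was 11.3, that of A3905 and A3906, so no pair was the same library. Against the other WT T1D mice, these 2 had values of 145 to 193. Figures and summaries used Python 3.11.15, pandas 2.3.3, numpy 2.4.6, scipy 1.17.1, and matplotlib 3.10.9.

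The members and gene lists were chosen with earlier results of these data known. All members were named, and pathway genes were named if they had an edgeR adjusted p under 0.05 in any comparison. For likeness, the 3 genes with the highest Pearson r of log2(CPM + 0.5) with each member over 23 mice, at a mean of at least 1 CPM, were taken. Marker correlations used the mean log2 CPM of each list and are given with no p. Promoter sequences came from RefSeq (GRCm38.p6).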

Additional observations from a re-analysis of the deposited data

Results flagged for a closer look

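In 6 of 40 gene and group combinations (10 genes, 4 groups) 1 mouse lay far from the others of its group by Dixon's criterion at 95%. Chance alone flags about 1 in 20 groups of independent, normally distributed values. The 10 genes were read in the same mice, so 6 of 40 cannot be set against that rate. In WT T1D the flagged values were Igf2 in A1764 at 102.4 CPM, Igfbp2 in the same mouse at 7.60 CPM, Igfbp3 in A3905 at 108.0 CPM, and Irs2 in A1758 at 35.2 CPM, each the highest of 6. In KO T1D they were Irs1 in A3674 at 46.0 CPM, the highest of 6, and Insr in A3675 at 31.1 CPM, the lowest of 6. Without A1758 the Irs2 log2 fold change in WT was 0.31 (edgeR adjusted p = 0.0856).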

How the results depend on the processing

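No paired analysis was possible because the mouse IDs that number the replicates were not shared between groups. Values below are log2 differences. DESeq2 called 2 members for T1D in WT (Igf2 and Irs2) and 1 between T1D groups (Igf2). With mice of IDs A36 to A39 only, 2 members were called for T1D in WT (Irs1 and Igfbp3) and 2 between T1D groups (Igf2 and Igfbp3), Insr turned to 0.016 for T1D in WT, Igf1r to -0.070 for the interaction, and Igfbp2 to -0.0066 for the averaged T1D comparison. With limma on log2(TPM + 1) and log2(TPM + 0.1), 4 members were called for T1D in WT under each (Igf1, Irs1, Insr, and Igfbp4, all lower), and 1 for the average with the pseudocount of 1 (Igf1). The median of all genes moved by -0.24 and -0.29 there. The share of all genes called is not given for limma or for mice of IDs A36 to A39. These counts of members therefore cannot be set against it. Signs turned for T1D in WT in Igf1r (-0.21 and -0.24) and Igfbp2 (-0.097 and -0.14), for the interaction in Insr (0.21 and 0.25), and for the average in Igf1r (-0.075 and -0.085) and Igfbp2 (-0.11 and -0.15). Between Control groups they turned in Igf2 (0.030 and 0.040) and Igfbp5 (-0.030 and -0.030), and between T1D groups in Igf1r (0.16 and 0.18), Insr (0.14 and 0.17), and Irs2 (0.015 and 0.016).

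Without A3905 and A3906, signs turned for T1D in WT in Igf1r (-0.056), Igfbp3 (-0.21), and Igfbp5 (0.037), for the interaction in Insr (0.053), Igfbp3 (0.25), and Igfbp5 (-0.16), and for the average in Igfbp3 (-0.083). Between T1D groups they turned in Igf1 (-0.018), Igf1r (0.050), Insr (0.019), Igfbp3 (0.14), Igfbp4 (-0.034), and Igfbp5 (-0.15). Without A1764 as well, they turned for T1D in WT in Igf1r (-0.051), Igfbp2 (-0.24), and Igfbp3 (-0.30), for the interaction in Insr (0.032), Igfbp2 (0.14), Igfbp3 (0.35), and Igfbp5 (-0.020), and for the average in Igfbp2 (-0.17) and Igfbp3 (-0.13). Between T1D groups they turned in Igf1r (0.045), Igfbp2 (0.0020), Igfbp3 (0.23), Igfbp4 (-0.00053), and Igfbp5 (-0.006). With the erythroid score as covariate, signs turned for T1D in WT in Igf1r (-0.062) and Igfbp5 (0.13), for T1D in KO in Irs1 (0.098) and Igfbp3 (-0.0033), for the interaction in Igfbp5 (-0.20), and for the average in Irs1 (0.038) and Igfbp5 (0.027). They also turned between Control groups in Igf2 (0.025), and between T1D groups in Igf1 (-0.0045), Igf1r (0.036), Igfbp4 (-0.050), and Igfbp5 (-0.11). Irs1 for T1D in WT was -0.02 in that fit (edgeR adjusted p = 0.999), against -0.60 without the covariate. All 13 erythroid markers had a positive log2 fold change for T1D in WT, so that fit cannot separate their level from T1D. The cause of these moves was not tested.

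Leaving out 1 mouse at a time gave 0 to 2 members called for T1D in WT, with Igf2 called without A1758 and both Igf2 and Irs2 without A3909. Over these fits T1D in WT ranged from 0.31 to 0.41 for Irs2, from 0.67 to 1.84 for Igf2 (lowest without A1764), from -0.75 to -0.45 for Irs1, from 0.07 to 0.69 for Igfbp3 (lowest without A3905), from -0.037 to 0.094 for Igf1r, and from -0.0034 to 0.46 for Igfbp2. T1D in KO ranged from -0.070 to 0.24 for Igf2, -0.15 to 0.062 for Irs1, -0.043 to 0.12 for Igfbp3, and -0.14 to 0.024 for Igfbp4. The interaction ranged from -0.054 to 0.057 for Insr and -0.036 to 0.25 for Igfbp5, and the average from -0.053 to 0.18 for Igfbp2. Between Control groups the ranges were -0.11 to 0.0027 for Igf1, -0.25 to 0.12 for Igf2, -0.10 to 0.0059 for Insr, and -0.068 to 0.069 for Igfbp5, and between T1D groups -0.033 to 0.13 for Igf1, -0.071 to 0.012 for Igf1r, and -0.017 to 0.26 for Igfbp5. The direction of Irs2 for T1D in WT was positive in every fit listed here. Of the 65 pathway genes, 2 were called for T1D in WT, against 4 with DESeq2, 21 with each TPM pseudocount, 9 with mice of IDs A36 to A39 only, 1 with a minimum of 50 counts, and 0 without a count filter, without A3905 and A3906, without A1764 as well, or with the erythroid covariate. Leaving out 1 mouse at a time gave 0 to 5. Of these fits, the share of all genes called is given above only for the main edgeR fit and DESeq2. Without a count filter the edgeR adjusted p was 0.0565 for Pck1 and 0.0585 for Eif4ebp1. Igfbp2 had the fewest counts of the members, 33 to 135 per mouse.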
